A study of Mus musculus with 24 samples.

Results

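The comparison described here set RAW 264.7 cells of a stable Nur77 line at 1 h of LPS against a stable GFP line at 1 h of LPS, with 4 RNA-seq libraries a line, 8 of the 24 libraries of the series. The libraries were chosen by their titles and not by any measured value. RAW 264.7 is a mouse macrophage-like cell line. The cells of all 8 libraries had 50 ng/ml doxycycline for 18 h, given, per the labels, to induce the construct, and then 500 ng/ml LPS for 1 h. The Nur77 line carried the Nur77 construct and its control line the GFP construct. Each construct is represented by 1 stable line, so the construct and the line that carries it cannot be told apart, and the labels do not give the 4 replicates as separate cultures, so the p-values rest on the spread among these libraries, which may be technical. The same 2 lines without LPS (0 h) and at 5 h of LPS, with 4 libraries each, were used to set the 1 h difference beside the differences at the other times.

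LPS is sensed on macrophages by TLR4 with its partner MD-2, and signals through the adaptors MyD88 and TRIF. Within minutes the kinases downstream release NF-κB from its inhibitor IκBα and phosphorylate AP-1 proteins, so that the first transcripts to rise are immediate early genes, their feedback inhibitors, and the first cytokines and chemokines. Nur77, encoded by Nr4a1, is an orphan nuclear receptor that is itself an immediate early gene. It binds the NBRE element and is known in macrophages for restraining inflammatory gene expression.

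Replicate 2 of the Nur77 line at 1 h stood apart from its group, and every result below was computed with and without it. On the first principal component of the 24 libraries, which held 48.1% of the variance, it lay at 11.6, while the other 3 Nur77 libraries at 1 h lay between -11.4 and -10.2. It was at least 1 log2 unit from the mean of its 3 group members at 722 of 12213 genes, 383 above and 339 below, whereas each of the other 3 was that far from the mean of the remaining pair at 177 to 200 genes. Of these 722 genes, 545 lay on the side to which the gene moved between 1 h and 5 h in the GFP line, which shares no library with them. No like count was made over all genes or for the other 3 libraries. Across all genes the deviation of replicate 2 correlated with that change at 0.38. Within the Nur77 line, replicate 2 still correlated best with the libraries at 1 h (0.981), with 0.964 at 5 h and 0.954 at 0 h. For the other 3 libraries the medians were 0.993 at 1 h, 0.953 at 5 h and 0.972 at 0 h. The label of replicate 2 was kept. In what follows, a gene "rose" or "fell" only where it passed an adjusted p of 0.05 in edgeR's quasi-likelihood test, in the same direction, both with and without this library. Values in square brackets are those without it. Means are given ± SD over the 4 libraries of a line, and a median is that of log2 fold changes over the tested members of a list.

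Summed over the 1 transcript kept for each gene, a library held 11106896 to 23778402 counts in the Nur77 line and 8137306 to 21695595 in the GFP line. Sums over all transcripts of the table were 22057837 to 47362982.5 in the Nur77 line and 15925373.5 to 42530748.5 in the GFP line. Macrophage genes were present in both lines, and their summed level was lower in the Nur77 line, at 9670 to 11963 CPM (counts scaled to library size), than in the GFP line, at 20042 to 22333 CPM. Such bulk samples cannot show whether the lower level held for every cell of the line or for a part of them. Markers of other cells were near 0 in all 8 libraries. Epithelial markers had no count in 8 of 8 genes, fibroblast markers summed to at most 0.523 CPM with 6 of 9 at 0 (Col1a2, Col3a1, Dcn, Lum, Thy1 and Postn), and lymphocyte markers summed to at most 0.455 CPM with Cd3e and Ms4a1 among the 6 of 10 at 0. Neutrophil markers summed to 2.06 to 4.64 CPM in the Nur77 line and 2.55 to 3.30 CPM in the GFP line, with S100a9 and Ly6g at 0, and dendritic cell markers to 1.68 to 2.22 CPM in the Nur77 line and 1.24 to 1.92 CPM in the GFP line.

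The targeted gene was measured first. Nr4a1 stood at 42.4, 9.29, 40.00 and 39.8 CPM in Nur77 replicates 1 to 4, against 51.98, 63.2, 65.1 and 66.8 CPM in GFP replicates 1 to 4. The Nur77 libraries were all below the GFP libraries, with replicate 2 lowest (log2 fold change -0.91, SE 0.25, adjusted p = 0.00481 [-0.61, adjusted p = 1.63e-06]). Transcripts of Nr4a1 were thus not raised in the line named for it at 1 h, and before LPS they averaged 3.29 ± 0.408 CPM in the Nur77 line and 3.07 ± 0.376 CPM in the GFP line. The line difference of Nr4a1 was higher at 5 h than at 1 h (1 h minus 5 h -1.63, adjusted p = 0.0301). Its fitted value at 5 h was thus on the side of the Nur77 line, and its call there is not reported here. The sequence of the construct is not given in the sources used here, so whether its transcript would be counted at Nr4a1 is unknown and the gene does not check the labels. "Nur77 line" therefore means throughout the line labelled so. Of the other NR4A receptors, Nr4a2 fell (3.13 ± 0.303 CPM in Nur77 and 5.86 ± 0.449 CPM in GFP libraries; log2 fold change -0.91 [-0.88]), and Nr4a3 averaged 1.66 ± 0.222 CPM in the Nur77 line, with the GFP line at 2.37 ± 0.399 CPM, and did not pass (log2 fold change -0.50, SE 0.23, adjusted p = 0.0717), although it did without GFP replicate 4 (-0.61, adjusted p = 0.0467).

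Promoter stretches are shown for 6 early-response genes that differed between the lines and hold an AP-1, NF-κB or CRE motif near the start of transcription. They were chosen because they hold one. Cxcl10 (chemokine, higher in the Nur77 line), Lif and Il1a (cytokines, lower) hold the AP-1 motif TGANTCA, Cxcl2 (chemokine, higher) and Nfkbia (the IκBα gene, lower) hold the NF-κB motif (GGG and TTTCC with 2 free bases between), and Dusp1 (a MAP kinase phosphatase, lower) holds the CRE TGACGTCA. Each sequence is the 250 bases before the annotated start, 5′ to 3′ on the gene's strand, from RefSeq on GRCm38.p6, with the motif in capitals.
Cxcl10: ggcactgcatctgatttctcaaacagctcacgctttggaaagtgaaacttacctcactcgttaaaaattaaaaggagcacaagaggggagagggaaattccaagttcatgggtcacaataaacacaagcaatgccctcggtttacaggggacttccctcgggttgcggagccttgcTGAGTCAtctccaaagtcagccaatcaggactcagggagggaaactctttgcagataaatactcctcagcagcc
Lif: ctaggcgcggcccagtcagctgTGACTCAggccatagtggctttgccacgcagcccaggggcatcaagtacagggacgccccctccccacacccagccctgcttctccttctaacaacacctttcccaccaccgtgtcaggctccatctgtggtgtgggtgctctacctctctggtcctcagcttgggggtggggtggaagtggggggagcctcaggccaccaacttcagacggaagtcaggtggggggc
Il1a: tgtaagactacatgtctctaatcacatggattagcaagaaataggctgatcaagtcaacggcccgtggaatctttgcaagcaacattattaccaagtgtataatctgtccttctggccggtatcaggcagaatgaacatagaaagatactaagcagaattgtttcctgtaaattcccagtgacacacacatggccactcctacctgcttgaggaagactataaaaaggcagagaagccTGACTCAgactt
Cxcl2: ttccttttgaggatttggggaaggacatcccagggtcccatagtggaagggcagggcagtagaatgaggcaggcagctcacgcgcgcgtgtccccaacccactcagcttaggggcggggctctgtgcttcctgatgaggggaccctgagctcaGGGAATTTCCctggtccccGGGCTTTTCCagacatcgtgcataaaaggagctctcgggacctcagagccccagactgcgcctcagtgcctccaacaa
Nfkbia: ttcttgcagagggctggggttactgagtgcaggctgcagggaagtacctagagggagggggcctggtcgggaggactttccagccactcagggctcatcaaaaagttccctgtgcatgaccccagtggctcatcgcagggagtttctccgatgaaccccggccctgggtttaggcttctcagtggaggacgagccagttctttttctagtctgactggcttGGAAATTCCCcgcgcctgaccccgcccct
Dusp1: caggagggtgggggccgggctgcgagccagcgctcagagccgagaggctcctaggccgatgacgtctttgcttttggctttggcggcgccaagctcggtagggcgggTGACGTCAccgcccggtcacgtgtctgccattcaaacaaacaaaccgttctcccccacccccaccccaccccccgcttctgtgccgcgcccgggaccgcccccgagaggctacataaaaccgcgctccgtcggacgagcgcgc
The stretches lie at chr5:92348890-92349139, minus strand (Cxcl10), chr11:4257318-4257567, plus strand (Lif), chr2:129309973-129310222, minus strand (Il1a), chr5:90903649-90903898, plus strand (Cxcl2), chr12:55492648-55492897, minus strand (Nfkbia) and chr17:26508473-26508722, minus strand (Dusp1). The motif begins 74 bases before the start in Cxcl10, 228 in Lif, 12 in Il1a, 97 and 78 in Cxcl2, 29 in Nfkbia and 143 in Dusp1. Both strands were searched, for the NBRE AAAGGTCA as well, which none of these windows holds. No matches overlapped. Among all 32851 promoter windows of 300 bases in the table, 7.81% hold the AP-1 motif, 1.63% the NF-κB motif, 1.79% the CRE and 1.51% the NBRE. A match is a run of letters and not a shown binding site. The AP-1 motif stands in a gene that was higher (Cxcl10) and in genes that were lower (Lif and Il1a), and the NF-κB motif likewise in Cxcl2 and Nfkbia.

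At 1 h of LPS the lines differed at a large share of genes. With all libraries, 6259 of 12213 genes passed (51.2%), and without replicate 2, 6249 (51.2%). When only the 1 h libraries were fitted, 4350 passed, and 4995 without replicate 2. In both fits 5571 genes passed in the same direction (45.6%), of which 2826 rose (23.1%) and 2745 fell (22.5%) in the Nur77 line. The set changed in part: 688 calls were lost and 678 gained without the library, and none turned direction. A log2 fold change of at least 1 was reached in both fits by 980 genes (8.02%), 333 higher (2.73%) and 647 lower (5.30%). The CPM values of the lines did not overlap at 35.1% of genes with 4 libraries against 4, and at 43.9% with 3 against 4. A count of members in a gene list is read below against 23.1% and 22.5%. Members that a list contributed by rule had the smallest adjusted p in this same comparison, so their calls are no separate result.

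Most of the large differences were also found before LPS. Of the 980 genes, 859 also passed in the same direction before LPS, in other libraries of the same 2 lines, tested in the same fit. The share of all genes that passed before LPS is not given here, so 859 cannot be read against it. Across all genes tested, the line differences at 1 h and 0 h correlated at 0.85. The difference between the lines at 1 h was itself different from that at 0 h at 144 genes (1.18%), and at 227 (1.86%) without replicate 2. It differed from that at 5 h at 807 genes (6.61%), and at 1264 (10.3%) without replicate 2. The count against 0 h was the least stable of the results: it ran from 81 to 1600 when single 1 h libraries were left out, with 1600 without Nur77 replicate 1, 619 without Nur77 replicate 4, 89 without Nur77 replicate 3, and 81, 93 and 83 without GFP replicates 2, 3 and 4.

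Genes of chromosome 12 were lower more often than those of any other chromosome tested. Of its 435 tested genes, 266 fell (61.1%) and 15 rose (3.45%), with a median log2 fold change of -0.44 with and without replicate 2. Medians of the other chromosomes lay between -0.04 and 0.14. Fos, Nfkbia, Tnfaip2, Rhob, Frmd6, Dio2, Rcor1, Rrm2, Sel1l and Ifrd1, named below, are chromosome 12 genes that were lower, and Zfp36l1 is one that was higher. The part of the chromosome in their differences was not tested.

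**Figure D1:**
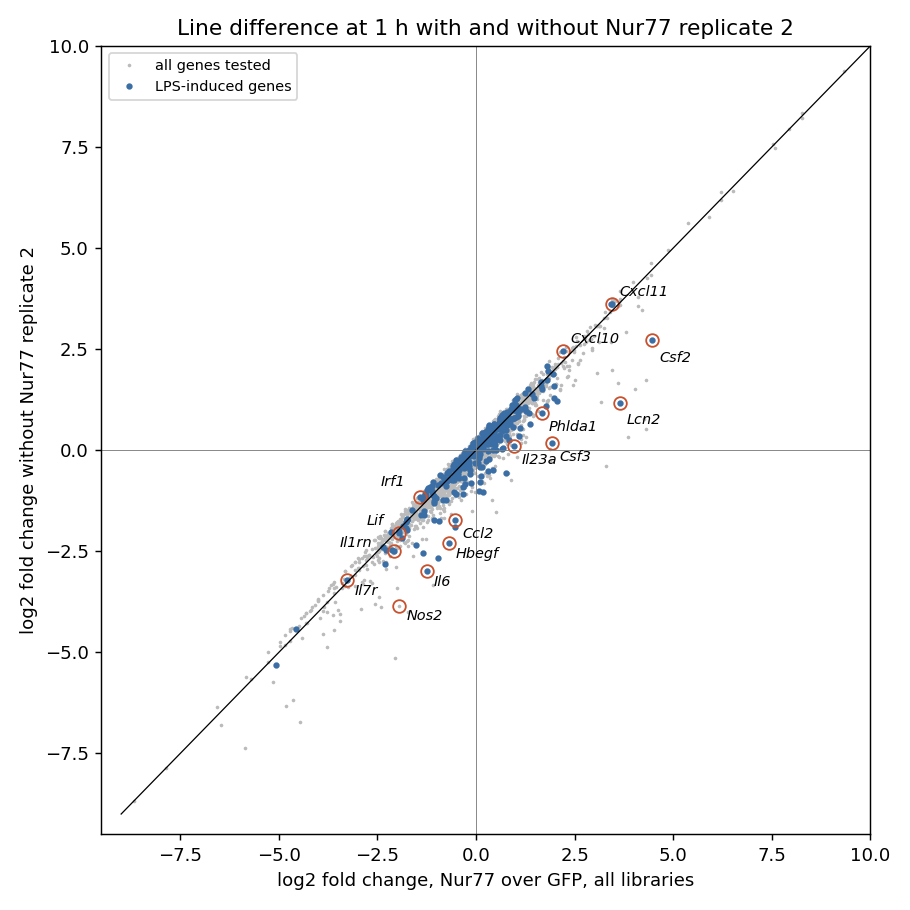
Log2 fold change of the Nur77 line over the GFP line at 1 h with all libraries (x axis) against the same without Nur77 replicate 2 (y axis), for 12213 genes in grey and 356 LPS-induced genes in blue, with named genes ringed in orange; the line marks equal values. Most genes lie on the line, while Csf2 (4.47 and 2.72), Lcn2 (3.65 and 1.17), Csf3 (1.93 and 0.17), Il23a (0.97 and 0.11) and Ccl2 (-0.53 and -1.73) lie below it.

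Among genes that passed in both fits, reached 10 CPM in the mean of the higher line and did not overlap between the lines, most of the largest differences were of genes nearly silent in 1 line. Lack of overlap was a condition of choice for these genes and not a separate result. Nefh, the neurofilament heavy chain, stood at 91.7, 103, 157 and 98.97 CPM in Nur77 replicates 1 to 4, against 0, 0.182, 0.174 and 0.224 CPM in GFP replicates 1 to 4. All Nur77 libraries were far above all GFP libraries (log2 fold change 9.33, SE 0.27, adjusted p = 9.57e-19). Cxcl14, a chemokine, averaged 28.3 ± 3.59 CPM in the Nur77 line, with the GFP line at 0.0595 ± 0.0859 CPM (log2 fold change 8.28 [8.35]). Alpl, an alkaline phosphatase, averaged 102 ± 11.7 CPM in the Nur77 line, with the GFP line at 0.319 ± 0.196 CPM, and Ece1, which processes endothelin, 55.8 ± 9.13 CPM in the Nur77 line, with the GFP line at 0.256 ± 0.192 CPM. Neo1, Rasgrf2, Zcwpw1 and the lectin Mgl2 were higher by 6.53, 6.22, 4.87 and 4.10 on the log2 scale with all libraries. At Mgl2 replicate 2 lay far above the rest of its group, at 62.2 CPM, and so raised that value. Csf2 and Lcn2, described below, were also among the 10 genes with the largest rise, at 4.47 [2.72] and 3.65 [1.17], and were smaller without replicate 2. In the other direction Mmp12, macrophage elastase, stood at 0.291, 0.538, 0.218 and 0.179 CPM in Nur77 replicates 1 to 4, against 24.9, 25.9, 31.01 and 28.3 CPM in GFP replicates 1 to 4. The lines did not overlap, and the log2 fold change was -6.48 [-6.80]. Cd84, a SLAM family receptor, averaged 2.07 ± 0.264 CPM in the Nur77 line, with the GFP line at 111 ± 5.08 CPM, and Atp6v0d2, a subunit of the osteoclast and macrophage proton pump, 1.91 ± 0.937 CPM in the Nur77 line, with the GFP line at 62.4 ± 5.55 CPM. Scg2, Cpe, Igsf3, Dio2, Ppargc1a, Acp5 and 4930550L24Rik had log2 fold changes from -5.28 to -4.31. All of these genes other than Csf2 and Lcn2 had a difference of at least 1 log2 unit and of the same sign before LPS, from -7.36 for Scg2 to 8.66 for Nefh.

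Genes that LPS raised differed between the lines in both directions. Over both lines 356 genes (2.91%) were higher at 1 h than at 0 h by a log2 change of at least 1, with an adjusted p under 0.05. Of these 112 were higher in the Nur77 line (31.5%, against 23.1% over all genes), 83 were lower (23.3%, against 22.5%) and 161 did not pass in both fits. The share lower was thus near that over all genes. The median log2 fold change of the 356 genes was 0.10 with and without replicate 2, against 0.01 and 0.00 over all genes. Of the 197 genes (1.61%) that were lower at 1 h by the same rule, 12 were higher (6.09%) and 44 lower (22.3%), with a median of -0.31. Here too the share lower was near that over all genes.

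The largest differences among LPS-induced genes were likewise taken only from genes that passed in both fits without overlap, so neither is a separate result for them. Among the LPS-induced genes, the chemokines Cxcl10 and Cxcl11, which recruit T cells through CXCR3, were far higher in the Nur77 line. Cxcl10 stood at 561, 185, 529.9 and 574 CPM in Nur77 replicates 1 to 4, against 103, 105, 95.2 and 98.1 CPM in GFP replicates 1 to 4. Replicate 2 had a lower level than the rest of its group but still lay above every GFP library (log2 fold change 2.20, SE 0.22, adjusted p = 6.00e-08 [2.46, adjusted p = 2.77e-20]). Cxcl11 averaged 14.03 ± 3.75 CPM in the Nur77 line, with the GFP line at 1.34 ± 0.501 CPM (log2 fold change 3.45 [3.63]); a second transcript without a gene name had nearly the same counts, so how reads were shared between them is uncertain. Phlda1 (148 ± 119 CPM in Nur77 and 46.4 ± 5.14 CPM in GFP libraries) and Clip4 were higher as well, by 1.66 [0.93] and 1.98 [1.29]. On the lower side Il7r, the interleukin-7 receptor, averaged 9.17 ± 1.21 CPM in the Nur77 line, with the GFP line at 88.03 ± 6.41 CPM (log2 fold change -3.26, SE 0.08, adjusted p = 2.43e-20). Adamts1, a secreted protease, averaged 23.7 ± 1.91 CPM in the Nur77 line, with the GFP line at 92.2 ± 5.95 CPM (log2 fold change -1.96 [-2.01]). Rhob, a small GTPase, and Frmd6, both on chromosome 12, had log2 fold changes of -1.84 and -2.28.

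The LPS receptor and signalling chain held 32 tested genes, of which 11 rose and 6 fell (median log2 fold change 0.10, against 0.01 over all genes). Ikbke, a kinase that activates IRF3, stood at 200.3, 203, 128 and 139 CPM in Nur77 replicates 1 to 4, against 77.7, 74.4, 77.8 and 76.7 CPM in GFP replicates 1 to 4. Every Nur77 library was above every GFP library (log2 fold change 1.13, SE 0.14, adjusted p = 5.10e-07 [1.03, adjusted p = 5.19e-06]). Irak3, the inhibitory IRAK, averaged 50.2 ± 16.9 CPM in the Nur77 line, with the GFP line at 24.98 ± 1.45 CPM, with a log2 fold change of 1.01 [0.78]. Ly96, which encodes MD-2, and Tbk1 rose by 0.39 and 0.27. Ticam2, the TRIF-linked adaptor TRAM, fell by 0.67, and Ikbkg, which encodes NEMO, by 0.47. The receptor gene Tlr4 averaged 136 ± 33.7 CPM in the Nur77 line, with the GFP line at 171 ± 23.02 CPM (log2 fold change -0.33 [-0.51]), and its call was lost without Nur77 replicate 1 (adjusted p = 0.0797) or 3 (0.0659) and without GFP replicate 1 (0.0566) or 2 (0.0825).

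AP-1 subunits split evenly: 4 of 17 rose and 4 fell (median -0.04 [-0.10]), both near the shares over all genes. Fos, the defining partner of Jun in AP-1, was lower, at 16.9, 18.2, 15.96 and 16.5 CPM in Nur77 replicates 1 to 4, against 25.99, 28.9, 30.7 and 26.2 CPM in GFP replicates 1 to 4. The ranges of the lines did not overlap (log2 fold change -0.73, SE 0.10, adjusted p = 3.14e-06 [-0.77, adjusted p = 1.15e-06]). Fosl1, the Fos-family member Fra-1, was higher, at 73.1, 137, 119.7 and 78.8 CPM in Nur77 replicates 1 to 4, against 28.8, 31.8, 30.7 and 35.3 CPM in GFP replicates 1 to 4. No Nur77 library was below 73.1 CPM and no GFP library above 35.3 CPM (log2 fold change 1.68, SE 0.15, adjusted p = 3.63e-09). Fosb rose too (22.2 ± 3.65 CPM in Nur77 and 13.1 ± 1.55 CPM in GFP libraries; log2 fold change 0.75 [0.84]). Atf3, a stress-induced repressor of the ATF family, was lower at 252, 176, 246 and 226 CPM in Nur77 replicates 1 to 4, against 468, 481, 511 and 485 CPM in GFP replicates 1 to 4 (log2 fold change -1.11, SE 0.08, adjusted p = 8.65e-12). Jun did not pass with all libraries. It stood at 357, 658, 393 and 322 CPM in Nur77 replicates 1 to 4, against 416, 439, 456 and 462 CPM in GFP replicates 1 to 4, with replicate 2 above and the other 3 Nur77 libraries below the GFP libraries (log2 fold change -0.04, SE 0.13, adjusted p = 0.842 [-0.31, adjusted p = 1.63e-04]). Junb averaged 741 ± 112 CPM in the Nur77 line, with the GFP line at 727 ± 47.6 CPM, and did not pass in either fit (log2 fold change 0.03, SE 0.08, adjusted p = 0.81).

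Of 26 tested genes listed as AP-1 targets, 5 rose and 9 fell, with a median of -0.33 and -0.71 without replicate 2. Lgals3, galectin-3, averaged 301 ± 36.4 CPM in the Nur77 line, with the GFP line at 1234 ± 119.7 CPM (log2 fold change -2.03, SE 0.08, adjusted p = 3.90e-17). Vimentin, Vim, averaged 604 ± 20.5 CPM in the Nur77 line, with the GFP line at 1178 ± 51.6 CPM, with a log2 fold change of -0.96 [-0.98]. Itgav, the integrin αV chain, was among those that rose (192 ± 30.1 CPM in Nur77 and 71.5 ± 11.6 CPM in GFP libraries; log2 fold change 1.43 [1.43]). Plau and Plaur, of the urokinase system, and Mmp9 depended on replicate 2: Plau had 0.68 [0.04], Plaur 0.65 [0.02] and Mmp9 -0.11 [-1.50]. The calls of Plau and Plaur were lost without replicate 2, and also without GFP replicate 1, 2 or 4, where the adjusted p was 0.0580 to 0.0867; that of Plaur was lost without GFP replicate 3 as well (0.0556). Mmp9 passed only without replicate 2.

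Among 22 other immediate early transcription factors, 6 rose and 9 fell (median -0.02 [0.01]). Egr1, a zinc-finger factor of the growth response, stood at 370.4, 662, 445 and 340.0 CPM in Nur77 replicates 1 to 4, against 947, 950.4, 944 and 950.4 CPM in GFP replicates 1 to 4. Replicate 2 was highest in its group, yet every Nur77 library was below every GFP library (log2 fold change -1.06, SE 0.13, adjusted p = 4.49e-07 [-1.30, adjusted p = 3.28e-13]). Egr2 fell less (120.4 ± 10.3 CPM in Nur77 and 157 ± 3.88 CPM in GFP libraries; log2 fold change -0.39 [-0.34]). Klf2 and Klf4, which restrain inflammatory activation of macrophages, were both lower. Klf2 averaged 21.4 ± 5.27 CPM in the Nur77 line, with the GFP line at 42.8 ± 5.21 CPM, and Klf4 7.82 ± 0.723 CPM in Nur77 and 15.6 ± 1.15 CPM in GFP libraries, and their log2 fold changes were -1.01 [-1.19] and -0.99 [-0.98]. Bhlhe40, a repressor of Il10, had -1.29 [-1.08]. Ier3, an early survival gene, rose with replicate 2 highest (279.8, 585, 241 and 223 CPM in Nur77 replicates 1 to 4, against 193, 186, 195 and 208 CPM in GFP replicates 1 to 4; log2 fold change 0.76 [0.35]).

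**Figure D2:**
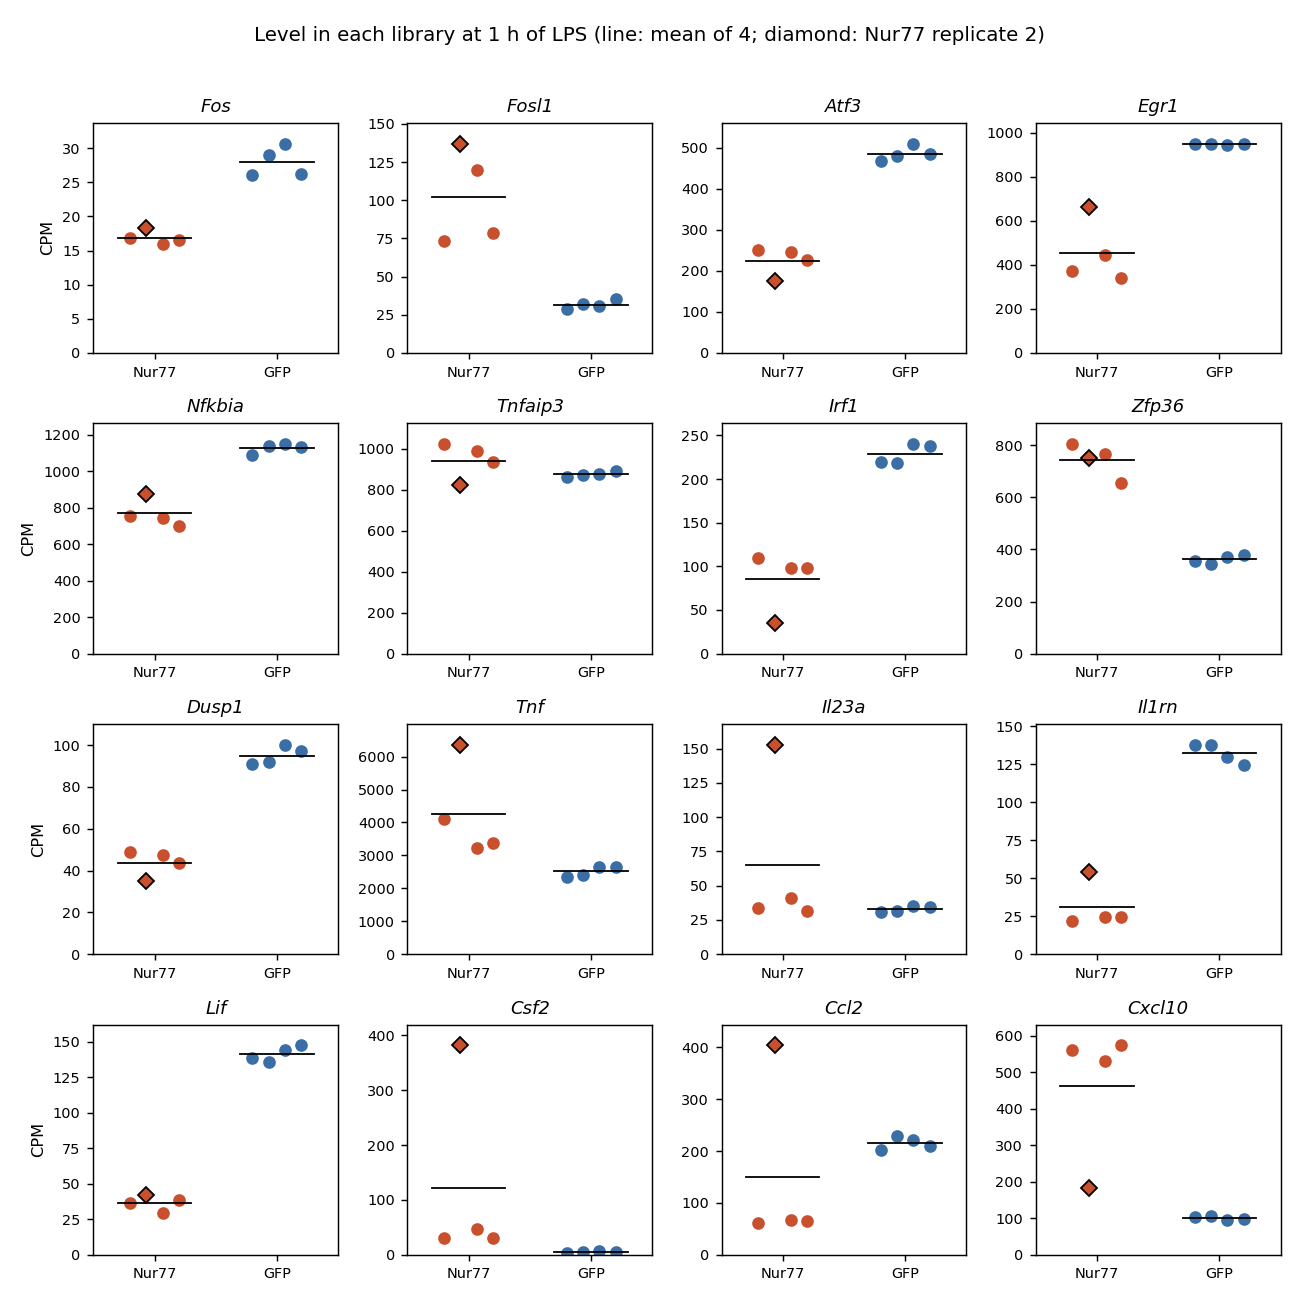
Level in CPM (y axis, from 0) in each 1 h library for 16 early-response genes, Nur77 line in orange on the left and GFP line in blue on the right; horizontal lines are means of 4 and the outlined diamond is Nur77 replicate 2. Fos, Atf3, Egr1, Nfkbia, Irf1, Dusp1, Il1rn and Lif were lower in every Nur77 library than in every GFP library, and in Il23a, Csf2 and Ccl2 replicate 2 was far above the other 3 (382 CPM of Csf2 against at most 47.9).

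NF-κB subunits and IκB proteins rose at 6 of 11 genes and fell at 1 (median 0.25). The subunit genes Nfkb1, Rel and Nfkb2 were higher, with log2 fold changes of 0.63, 0.47 and 0.30 with all libraries. At Nfkb1 replicate 2 lay far above the rest of its group, at 284 CPM. The exception was Nfkbia, whose product IκBα holds NF-κB in the cytoplasm and is its classic early target. It stood at 756, 876, 744 and 698 CPM in Nur77 replicates 1 to 4, against 1091, 1141, 1148 and 1131 CPM in GFP replicates 1 to 4. The groups did not overlap (log2 fold change -0.55, SE 0.07, adjusted p = 1.56e-07 [-0.62, adjusted p = 1.06e-09]).

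Feedback and survival targets of NF-κB rose at 9 of 18 genes and fell at 2 (median 0.19 [0.20]). Bcl2a1d, an anti-apoptotic BCL2 relative with near-identical copies in the genome whose reads may be shared, averaged 215 ± 43.5 CPM in the Nur77 line, with the GFP line at 114 ± 5.26 CPM (log2 fold change 0.91 [0.76]). Traf1 and Birc3, which act in TNF receptor signalling, had 0.56 [0.54] and 0.46 [0.53]. Tnip3, a partner of A20, had 0.45 [0.50]. Tnfaip3, which encodes A20 itself, the deubiquitinase that ends NF-κB signalling, was close in the lines: it stood at 1022, 825, 987 and 933 CPM in Nur77 replicates 1 to 4, against 864, 871, 877 and 893 CPM in GFP replicates 1 to 4. Replicate 2 lay below the GFP libraries and the other 3 Nur77 libraries above them (log2 fold change 0.10, SE 0.06, adjusted p = 0.174 [0.16, adjusted p = 0.0149]). Tnfaip2 on chromosome 12 fell, at 571 ± 163 CPM in the Nur77 line, with the GFP line at 1379.8 ± 99.96 CPM (log2 fold change -1.27, SE 0.13, adjusted p = 2.91e-08).

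MAP kinase phosphatases and Ras brakes rose at 7 and fell at 5 of 15 genes (median 0.23 [0.12]). Dusp1, which switches off p38 and JNK, stood at 49.01, 34.9, 47.2 and 43.6 CPM in Nur77 replicates 1 to 4, against 90.8, 91.9, 100.2 and 97.1 CPM in GFP replicates 1 to 4. All Nur77 libraries were below all GFP libraries (log2 fold change -1.12, SE 0.10, adjusted p = 1.16e-09 [-1.02, adjusted p = 1.73e-10]). Dusp4 fell as well (248 ± 30.9 CPM in Nur77 and 458 ± 6.89 CPM in GFP libraries; log2 fold change -0.89 [-0.81]). The Sprouty genes, inhibitors of Ras signalling, rose: Spry2 averaged 17.4 ± 4.22 CPM in the Nur77 line, with the GFP line at 8.61 ± 0.539 CPM (log2 fold change 1.02 [0.84]). Spry4 averaged 4.21 ± 2.82 CPM in the Nur77 line, with the GFP line at 0.227 ± 0.0710 CPM (log2 fold change 4.10 [3.56]).

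mRNA decay factors rose at 5 and fell at 2 of 17 genes (median 0.16 [0.24]). Zfp36 encodes tristetraprolin, which binds AU-rich elements of cytokine mRNAs and speeds their decay. It stood at 804, 751, 765 and 656 CPM in Nur77 replicates 1 to 4, against 354, 343, 373 and 377 CPM in GFP replicates 1 to 4. Every Nur77 library was above every GFP library (log2 fold change 1.04, SE 0.07, adjusted p = 2.20e-12 [1.04, adjusted p = 6.67e-13]). Its relative Zfp36l1 averaged 59.98 ± 14.01 CPM in the Nur77 line, with the GFP line at 25.4 ± 2.96 CPM (log2 fold change 1.24 [1.37]), and Elavl1, the stabilising HuR, rose by 0.37. Btg1, an activator of deadenylation, fell by 0.66.

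Cytokines fell at 8 of 20 tested genes and rose at 4 (median -0.26 [-0.33]), with no single direction. Tnf, the main early macrophage cytokine, was higher, at 4098, 6357, 3237 and 3367 CPM in Nur77 replicates 1 to 4, against 2356, 2419, 2662 and 2634 CPM in GFP replicates 1 to 4. The lines did not overlap, and replicate 2 was highest (log2 fold change 0.76, SE 0.14, adjusted p = 1.43e-04 [0.50, adjusted p = 4.52e-05]). Csf2, which encodes GM-CSF, was higher too, at 30.1, 382, 47.9 and 30.3 CPM in Nur77 replicates 1 to 4, against 4.23, 5.78, 6.45 and 5.27 CPM in GFP replicates 1 to 4. Replicate 2 was by far the highest, and the other 3 also lay above every GFP library (log2 fold change 4.47 [2.72]).

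The interleukin-1 genes and Lif were lower. Il1rn, the interleukin-1 receptor antagonist, stood at 21.7, 54.4, 24.7 and 24.7 CPM in Nur77 replicates 1 to 4, against 138, 138, 129.6 and 125 CPM in GFP replicates 1 to 4. Every Nur77 library was under every GFP library (log2 fold change -2.09, SE 0.18, adjusted p = 6.57e-09 [-2.49, adjusted p = 3.00e-19]). Il1a stood at 57.1, 101, 66.4 and 63.6 CPM in Nur77 replicates 1 to 4, against 148, 149, 155 and 146 CPM in GFP replicates 1 to 4, again without overlap (log2 fold change -1.06, SE 0.13, adjusted p = 5.11e-07 [-1.26, adjusted p = 4.10e-12]). Il1b averaged 22.3 ± 6.83 CPM in the Nur77 line, with the GFP line at 36.8 ± 4.31 CPM (log2 fold change -0.73 [-0.56]). Lif, a cytokine of the interleukin-6 family, stood at 36.3, 42.3, 29.3 and 38.5 CPM in Nur77 replicates 1 to 4, against 139, 136, 144 and 147 CPM in GFP replicates 1 to 4. The ranges in the lines were far apart (log2 fold change -1.96, SE 0.09, adjusted p = 2.98e-15 [-2.04, adjusted p = 5.90e-17]). Csf1, the macrophage growth factor M-CSF, averaged 25.3 ± 7.63 CPM in the Nur77 line, with the GFP line at 84.4 ± 2.61 CPM (log2 fold change -1.75, SE 0.12, adjusted p = 1.42e-11, all libraries). At Csf1 replicate 2 lay far above the rest of its group, at 36.6 CPM. Ifnb1, Il10 and Il12a were too low to test, and Il12b, counted among those that fell, had no count in the Nur77 line and 0, 3, 1 and 2 counts in the GFP libraries, and its call was lost without GFP replicate 2 (adjusted p = 0.0522).

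A set of cytokine and growth factor genes changed its call with replicate 2. Il23a, a subunit of interleukin-23, stood at 33.9, 153, 40.8 and 31.7 CPM in Nur77 replicates 1 to 4, against 30.7, 31.5, 35.3 and 34.4 CPM in GFP replicates 1 to 4; the other 3 Nur77 libraries overlapped the GFP libraries (log2 fold change 0.97, SE 0.34, adjusted p = 0.0245 [0.11, adjusted p = 0.352]). Csf3, granulocyte colony-stimulating factor, stood at 17.99, 176, 14.4 and 17.4 CPM in Nur77 replicates 1 to 4, against 12.3, 15.1, 15.4 and 15.2 CPM in GFP replicates 1 to 4 (log2 fold change 1.93, SE 0.61, adjusted p = 0.0126 [0.17, adjusted p = 0.425]). Neither passed without that library, and Il23a did not without GFP replicate 2 either (adjusted p = 0.0535). Osm, oncostatin M, stood at 50.6, 90.7, 34.4 and 43.7 CPM in Nur77 replicates 1 to 4, against 45.01, 52.4, 57.8 and 56.4 CPM in GFP replicates 1 to 4, and its direction turned (log2 fold change 0.04, SE 0.18, adjusted p = 0.863 [-0.31, adjusted p = 0.00886]). Il6 and Hbegf were lower in the other 3 libraries only. Il6 stood at 0.250, 2.76, 0.305 and 0 CPM in Nur77 replicates 1 to 4, against 1.87, 2.55, 1.92 and 0.896 CPM in GFP replicates 1 to 4, and its log2 fold change was -1.26 [-2.99]. Hbegf, a ligand of the EGF receptor, stood at 2.25, 21.5, 2.70 and 1.17 CPM in Nur77 replicates 1 to 4, against 9.70, 12.02, 10.3 and 10.8 CPM in GFP replicates 1 to 4, and its log2 fold change was -0.69 [-2.31]. Both passed without replicate 2 and not with all libraries, and Il6 also passed without GFP replicate 4 (-1.53, adjusted p = 0.0297).

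Chemokines rose at 10 of 17 genes and fell at 1 (median 0.75 [0.72]). Cxcl2, which attracts neutrophils, stood at 3761, 4779, 3241 and 3597 CPM in Nur77 replicates 1 to 4, against 2252, 2224, 2024 and 2060.1 CPM in GFP replicates 1 to 4. The ranges of the lines did not overlap (log2 fold change 0.85, SE 0.14, adjusted p = 2.69e-05 [0.72, adjusted p = 7.96e-05]). Ccl3 and Ccl4, the macrophage inflammatory proteins, were higher by 0.48 [0.23] and 0.32 [0.30]. Ccl22, a ligand of CCR4, averaged 12.4 ± 1.34 CPM in the Nur77 line, with the GFP line at 4.09 ± 0.686 CPM (log2 fold change 1.64 [1.59]), and Ccl5 had 0.79 [0.94]. Cxcl1 was the one that fell, at 1.84 ± 0.993 CPM in Nur77 and 4.17 ± 0.596 CPM in GFP libraries (log2 fold change -1.08 [-0.80]). Ccl2, the monocyte attractant, stood at 61.2, 403, 67.9 and 65.4 CPM in Nur77 replicates 1 to 4, against 202, 229, 221 and 209.9 CPM in GFP replicates 1 to 4. It was lower in 3 Nur77 libraries and higher in replicate 2 than in any GFP library, so it passed only without that library (log2 fold change -0.53, SE 0.42, adjusted p = 0.302 [-1.73, adjusted p = 1.17e-15]).

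Interferon regulators rose at 6 and fell at 2 of 20 genes (median 0.06). Interferon-stimulated genes rose at 8 and fell at 8 of 34 (median -0.17 [-0.07]), both near the shares over all genes. Irf1, an early transcription factor of the interferon and LPS responses, stood at 109, 35.6, 98.3 and 98.4 CPM in Nur77 replicates 1 to 4, against 219, 218, 239.9 and 238 CPM in GFP replicates 1 to 4. All Nur77 libraries were below all GFP libraries and replicate 2 was lowest (log2 fold change -1.42, SE 0.19, adjusted p = 3.28e-06 [-1.17, adjusted p = 6.63e-15]). Socs3, a feedback inhibitor of STAT3 signalling, averaged 225 ± 25.9 CPM in the Nur77 line, with the GFP line at 143 ± 5.20 CPM (log2 fold change 0.65 [0.73]). Jak2 and Ifngr1, the receptor kinase and receptor chain, had 0.81 [0.52] and 0.49 [0.55]. Ifih1, the RNA sensor MDA5, and Oasl1 rose, at 87.98 ± 17.4 CPM in Nur77 and 47.5 ± 6.30 CPM in GFP libraries and 53.5 ± 13.8 CPM in Nur77 and 22.5 ± 1.18 CPM in GFP libraries, with log2 fold changes of 0.89 [1.02] and 1.25 [1.41]. Oas3 and Usp18, a brake on interferon receptor signalling, fell, with -0.85 [-0.95] and -1.13 [-1.30].

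Inflammatory enzymes and effectors rose at 4 and fell at 4 of 20 genes (median 0.02 [-0.08]), both near the shares over all genes. Ptgs2, cyclooxygenase-2, stood at 139, 523, 194 and 200.1 CPM in Nur77 replicates 1 to 4, against 134, 129, 112 and 111 CPM in GFP replicates 1 to 4. The groups did not overlap and replicate 2 was highest (log2 fold change 1.12, SE 0.26, adjusted p = 0.00143 [0.55, adjusted p = 2.15e-04]). Acod1, which makes itaconate, averaged 490.4 ± 31.6 CPM in the Nur77 line, with the GFP line at 319 ± 13.2 CPM (log2 fold change 0.62 [0.66]). Nos2, inducible nitric oxide synthase, was at most 1.14 CPM in all libraries and lower in the Nur77 line (0.335 ± 0.499 CPM in Nur77 and 1.07 ± 0.0667 CPM in GFP libraries; log2 fold change -1.95 [-3.85]). Lcn2, the siderophore-binding lipocalin-2, had 71.1 CPM in replicate 2 and 3.08 to 4.23 in the other 3, against 0.870 to 2.44 in the GFP line (log2 fold change 3.65 [1.17]). Inflammasome genes rose at 6 and fell at 3 of 13 (median 0.25 [0.22]), among them Casp1 (0.25 [0.25]), Il18rap (0.89 [0.74]) and, lower, Txnip (-0.87 [-1.17]) and Panx1 (-0.55 [-0.53]).

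The unfolded protein and integrated stress response had the largest share of members higher among the 27 lists when both fits were required: 18 of 28 rose and 1 fell (median 0.38 [0.26]). Without replicate 2 alone, 18 passed as higher and 4 as lower, and the share higher was then larger among cell-cycle genes, at 30 of 37. They included chaperones of the endoplasmic reticulum (Hspa5, Hsp90b1, Calr, Canx), co-chaperones, and the transcription factors Xbp1, Atf4 and Atf6. Herpud1, which acts in degradation of misfolded proteins, averaged 247 ± 10.6 CPM in the Nur77 line, with the GFP line at 126 ± 7.99 CPM (log2 fold change 0.98, SE 0.05, adjusted p = 1.06e-13). Dnajc3 and Manf, an inhibitor of the kinase PERK and a secreted stress protein, had 0.98 [0.90] and 0.95 [0.81], and Xbp1 0.54 [0.56]. Sel1l, on chromosome 12, was the one that fell (-0.28 [-0.44]), and its call was lost without Nur77 replicate 1 (adjusted p = 0.0711), 3 (0.0600) or 4 (0.0527). Cytosolic heat shock chaperones rose at 5 and fell at 2 of 15 (median 0.11 [0.16]), with 0.53 [0.40] for Hspa4 and 0.41 [0.39] for Stip1. Nrf2 targets rose at 6 and fell at 9 of 22 (median -0.06). Nfe2l2, the gene of Nrf2 itself, was higher at 417 ± 46.6 CPM in the Nur77 line, with the GFP line at 281 ± 4.23 CPM, while Hmox1, heme oxygenase-1, averaged 63.8 ± 3.67 CPM in the Nur77 line, with the GFP line at 165 ± 14.1 CPM. The ferritin gene Fth1 averaged 4576 ± 309.7 CPM in the Nur77 line, with the GFP line at 7320.1 ± 458 CPM. Their log2 fold changes were 0.57 [0.59], -1.37 [-1.35] and -0.68 [-0.70].

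Genes of central carbon metabolism either fell or did not pass in both fits. In glycolysis 14 of 20 fell and none rose (median -0.31 [-0.38]), and none of the other 6 was called higher in either fit. Ldha, lactate dehydrogenase A, stood at 1527, 1631, 1258 and 1344 CPM in Nur77 replicates 1 to 4, against 2320.4, 2292, 2442 and 2355 CPM in GFP replicates 1 to 4 (log2 fold change -0.71, SE 0.06, adjusted p = 7.96e-10). Pgk1, Hk3 and Pfkfb3 had -0.70 [-0.77], -1.23 [-1.41] and -0.66 [-0.71]. In the citric acid cycle 13 of 25 fell and none rose (median -0.20), with differences such as -0.67 [-0.55] for Idh1, -0.39 [-0.36] for Sdhd and -0.32 [-0.30] for Pdk1, the kinase that limits pyruvate entry. Of the citric acid cycle genes 2 were called higher with all libraries and 1 without replicate 2, but none in both fits. Sterol synthesis was mixed, with 5 higher and 6 lower of 21 (median -0.09 [-0.05]): the regulator Insig1 had 0.57 [0.68] and the enzymes Dhcr7 and Fdft1 -0.65 [-0.65] and -0.47 [-0.45].

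Of 21 LXR target and lipid genes 11 fell and 3 rose (median -0.22 [-0.54]). Fabp5, a fatty acid carrier, averaged 41.9 ± 9.47 CPM in the Nur77 line, with the GFP line at 146 ± 8.53 CPM (log2 fold change -1.81 [-1.96]), while the scavenger receptor Cd36 averaged 1042 ± 44.2 CPM in the Nur77 line, with the GFP line at 379 ± 25.2 CPM (log2 fold change 1.46 [1.46]). Of 19 macrophage identity genes 12 fell and none rose (median -0.63 [-0.71]). Ctsb, a lysosomal cathepsin gene, averaged 2707 ± 222 CPM in the Nur77 line, with the GFP line at 5579 ± 391 CPM (log2 fold change -1.04), and another, Ctss, averaged 1000.3 ± 143 CPM in the Nur77 line, with the GFP line at 2452 ± 50.4 CPM (log2 fold change -1.29 [-1.20]). Mpeg1, perforin-2, had -1.44 [-1.32]. Osteoclast genes rose at 3 and fell at 3 of 9 (median -0.11 [-0.43]), Car2 with 1.87 [1.56] and Acp5 with -4.31 [-4.02]. Integrin and adhesion genes fell at 12 and rose at 5 of 22 (median -0.35 [-0.22]), the αX chain gene Itgax with -3.20 [-3.13] and the β3 chain gene Itgb3 with -3.46 [-4.04]. The summed level of macrophage genes given above is that of the macrophage identity list itself. It was lower in the Nur77 line beside the lipid, osteoclast and adhesion lists too, and its part in those was not tested.

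Cell-cycle genes rose at 20 of 37 and fell at 1 (median 0.29), and without replicate 2 alone 30 passed as higher (median 0.35). Cenpe, a mitotic kinesin, stood at 269.8, 287, 426 and 324 CPM in Nur77 replicates 1 to 4, against 234, 173, 163 and 156 CPM in GFP replicates 1 to 4. Every Nur77 library was above every GFP library (log2 fold change 0.85, SE 0.12, adjusted p = 2.36e-06). Tyms and Mcm3, of nucleotide and DNA synthesis, had 0.56 [0.62] and 0.40 [0.45], and Rrm2, on chromosome 12, -0.45 [-0.38]. Apoptosis regulators rose at 6 and fell at 1 of 19 (median 0.09), Pmaip1, which encodes NOXA, at 267 ± 78.9 CPM in the Nur77 line, with the GFP line at 130.3 ± 10.4 CPM (log2 fold change 1.03 [1.23]) and the initiator caspase gene Casp9 at 21.7 ± 1.24 CPM in Nur77 and 34.5 ± 2.57 CPM in GFP libraries (log2 fold change -0.67 [-0.65]). Among 17 coregulators and partners of Nur77, 4 rose and 4 fell (median 0.17 [0.15]), both near the shares over all genes. The deacetylase genes Hdac1 and Hdac2 had 0.37 [0.35] and 0.66 [0.58], the heterodimer partner Rxra -0.49 [-0.42] and the corepressor gene Rcor1, on chromosome 12, -0.63 [-0.61].

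**Figure D3:**
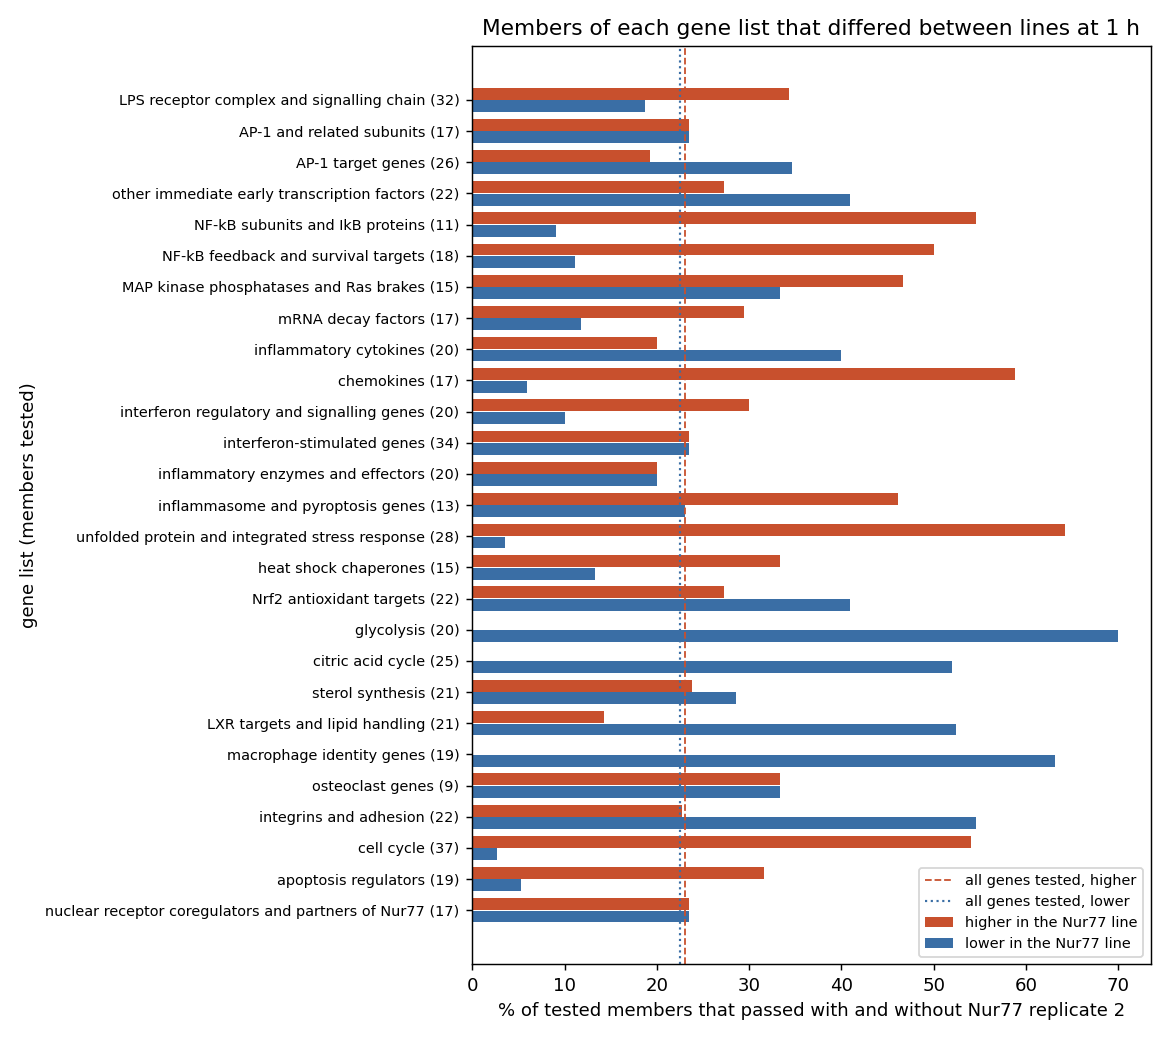
Share of the tested members of 27 gene lists (in brackets, how many were tested) that were higher (orange) or lower (blue) in the Nur77 line at 1 h with and without replicate 2; the dashed and dotted lines mark the shares over all genes, 23.1% and 22.5%. Glycolysis, the citric acid cycle and macrophage identity genes show no bar for higher, and the stress response shows 18 of 28 higher.

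In a small number of genes the difference between the lines at 1 h differed from that of the resting lines. Some of the genes below were chosen because their line difference at 1 h differed in the same direction from both 0 h and 5 h. For those genes a shift against both times was the condition of choice and not a separate result. Tnfaip3 was higher in the Nur77 line before LPS, at a log2 fold change of 1.56, and had 0.10 at 1 h (difference of the differences -1.45, adjusted p = 1.81e-09). Nfkbia had 0.73 at 0 h, -0.55 at 1 h and -0.58 at 5 h (-1.28, adjusted p = 2.23e-09, for 1 h minus 0 h). Traf1 had 1.91, 0.56 and -0.19 at the 3 times (-1.34, adjusted p = 1.09e-04), and Ccl22 3.51, 1.64 and 0.52 (-1.87, adjusted p = 0.00155). In these 4 genes the line difference at 1 h was lower than at 0 h.

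Irf1, Dusp1, Klf2, Nuak2, Rgs2 and Ifrd1 also had a lower difference at 1 h than at 0 h. Irf1 had 0.40 at 0 h and -1.42 at 1 h (-1.82, adjusted p = 0.00155), and Dusp1 -0.20 and -1.12 (-0.92, adjusted p = 0.00959). Klf2 had 0.02, -1.01 and 0.16 at 0, 1 and 5 h, so that its lower level was seen at 1 h and differed from both other times (1 h minus 0 h -1.03, adjusted p = 0.00182; 1 h minus 5 h -1.17, adjusted p = 5.76e-05). Nuak2, a stress-responsive kinase, had 0.30, -0.72 and 0.09 (1 h minus 0 h -1.02, adjusted p = 0.0029; 1 h minus 5 h -0.81, adjusted p = 0.00757). Rgs2, a regulator of G-protein signalling, had -0.89, -1.57 and -0.77 (1 h minus 0 h -0.68, adjusted p = 1.90e-04; 1 h minus 5 h -0.81, adjusted p = 1.41e-05). Ifrd1 had -0.56, -1.08 and -0.61 (1 h minus 0 h -0.52, adjusted p = 0.0011). Egr2, Trib1, Tnip3 and Arf2 met the same rule, with 1 h minus 0 h values of -0.63, -0.61, -0.79 and -0.64.

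The opposite shift was seen in Egr1, Fos, Ppp1r15a, Zfp36 and others. Egr1 had -2.60 at 0 h and -1.06 at 1 h (1.54, adjusted p = 4.70e-05), and Fos -1.99 and -0.73 (1.27, adjusted p = 3.99e-05), so both were lower in the Nur77 line at either time and closer to the GFP line at 1 h. Ppp1r15a, which encodes GADD34, the phosphatase subunit that ends the integrated stress response, had -0.55 at 0 h, 0.78 at 1 h and 0.05 at 5 h (1.34, adjusted p = 3.35e-06, for 1 h minus 0 h). It stood at 656, 891, 626 and 570.3 CPM in Nur77 replicates 1 to 4, against 355, 391, 430.1 and 416 CPM in GFP replicates 1 to 4. The lines did not overlap. Zfp36 had 0.45 and 1.04 (0.59, adjusted p = 0.00155). Ifih1 and Mylip, an LXR target that degrades the LDL receptor, rose against both other times, with 1 h minus 0 h values of 0.68 and 0.83, and Spry2 likewise with 0.73. The secreted factors Adm and Saa3 and the niacin receptor gene Hcar2 had negative differences at 0 h (-2.11, -1.30 and -1.42) and at 5 h (-2.46, -1.17 and -1.34). Their values at 1 h were -1.09 [-1.11], -0.21 [-0.28] and -0.21 [-0.41], and each differed from 0 h and from 5 h. At 1 h itself Saa3 and Hcar2 did not pass with all libraries and did without replicate 2 (adjusted p = 0.0240 and 0.0216), and Saa3 did without Nur77 replicate 1 too (0.0226). Of the 24 genes named for such a shift, 4 lost it when 1 library other than Nur77 replicate 2 was left out: Egr2 without any 1 of the GFP libraries (adjusted p 0.0526 to 0.0807), Ifih1 without Nur77 replicate 3 or GFP replicates 2, 3 or 4 (0.0608 to 0.0792), Spry2 without GFP replicates 2, 3 or 4 (0.0509 to 0.0835) and Hcar2 without GFP replicates 1, 2 or 4 (0.0538 to 0.0819).

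**Figure D4:**
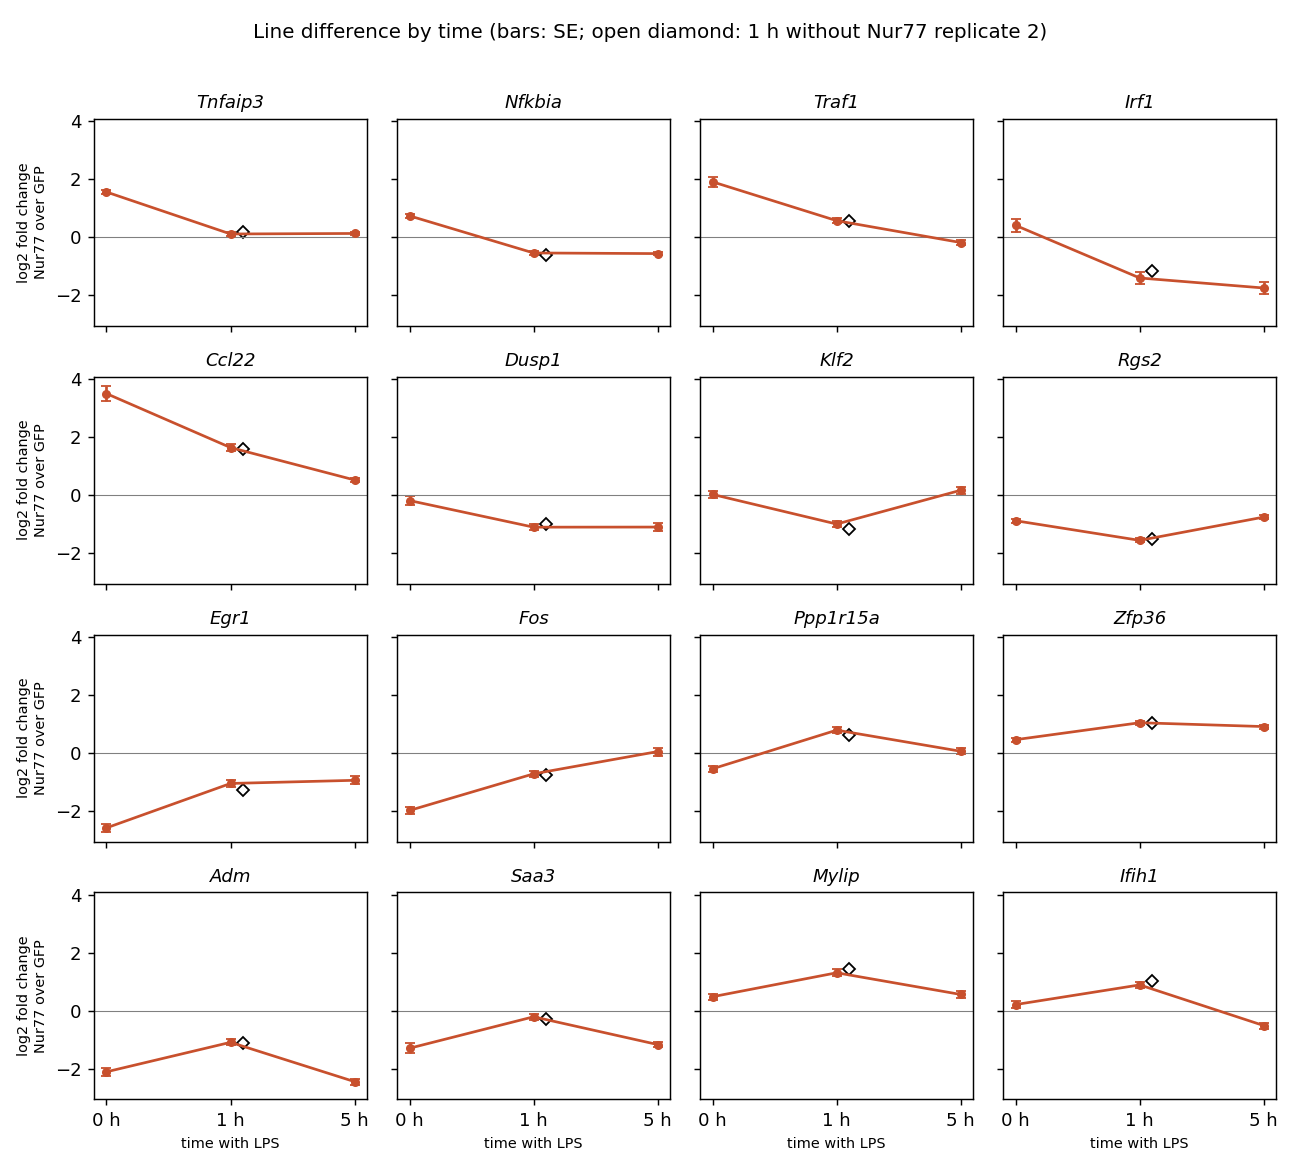
Log2 fold change of the Nur77 line over the GFP line (y axis) at 0, 1 and 5 h of LPS (x axis, evenly spaced categories) for 16 genes, with SE bars from the fit and n = 4 libraries a line and time; the open diamond is the 1 h value without Nur77 replicate 2. Tnfaip3 and Nfkbia stand highest at 0 h (1.56 and 0.73), Klf2 and Rgs2 are lowest at 1 h (-1.01 and -1.57), and Adm and Saa3 are highest at 1 h (-1.09 and -0.21).

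Beyond the cytokines, replicate 2 was farthest below its group at St6gal1, a sialyltransferase, with 0.875 CPM against 15.2 to 17.3 CPM in the other 3, at the fractalkine receptor gene Cx3cr1, with 18.4 against 98.4 to 117 CPM, and at Ms4a6c and Nr4a1. St6gal1 and Ms4a6c fell in the Nur77 line and Cx3cr1 rose in both fits (log2 fold changes -2.58 [-2.22], -4.09 [-3.82] and 1.53 [1.86]).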

How the data were processed

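Messenger RNA of 2 stable RAW 264.7 lines was sequenced in 24 libraries, taken 0, 1 or 5 h into LPS treatment, per the labels. The submitters' processing notes name HISAT2 2.1.0, CASAVA 1.8.2 and build mm10; the counting tool, annotation and strand setting were not stated in the sources used, so overlapping and antisense genes may share reads. The values, as deposited, are estimated counts without normalization, in steps of 0.5, for 42361 transcripts. Counts were rounded to whole numbers. Transcripts were matched to genes through RefSeq (42198), or GENCODE (70), and 93, with 0.496% of counts, kept their own ID. The transcript with the highest mean count stood for each of 25160 genes.

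Genes passing edgeR's filterByExpr (12213) were fitted in R 4.3.3 with edgeR 4.0.16 (TMM factors 0.896 to 1.14, robust quasi-likelihood, 6 group means, residual df 18, common biological coefficient of variation 0.0978), and the lines were compared at 1 h, against the comparisons at 0 and 5 h as interaction contrasts. P-values were adjusted by Benjamini-Hochberg over all genes, at 0.05. CPM values use TMM-scaled library sizes. The procedure was tested on simulated data with few changed genes, the same spread for every gene and no outlying library. The data here differ in these points, so that test does not cover them. Alternatives were DESeq2 1.42.0, its size factors, other filters, only the groups compared, a replicate block, the mean over transcripts, omission of 1 ribosomal transcript (0.189% to 1.72% of counts) and leaving out each 1 h library.

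The genes and lists were chosen with earlier results of these data known. Genes are named by several rules. A panel of NR4A and LPS-response genes, the 10 highest and 10 lowest log2 fold changes, and up to 8 each way among LPS-induced genes were taken. Apart from the panel, these had to pass in both fits, reach 10 CPM in the mean of the higher line and not overlap between the lines. Up to 8 each way were taken whose line difference at 1 h lay on the same side of those at 0 h and 5 h. Both shifts had to pass with and without Nur77 replicate 2. Up to 4 a list were named, those with the smallest adjusted p at 1 h among members that passed in both fits. Their small p-values were thus a condition of choice, and they are not typical members of their lists. The 8 genes at which Nur77 replicate 2 was farthest from its group were named too. Mmp9, Plau, Plaur, Tlr4, Ly96, Tbk1, Sel1l and the stress chaperones were added after their values were seen. Some genes that these rules name are not reported here. The samples of 1 line may be technical replicates.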

Additional observations from a re-analysis of the deposited data

Results flagged for a closer look

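Within a group of 4 libraries, 1 library lay far from the rest (its gap to the nearest, divided by the range of the group, passed Dixon's 95% critical value for 4 values) at 45 of the gene and line combinations of the 165 genes named. Chance marks about 1 in 20 such groups. In 35 of them the library was Nur77 replicate 2. That number is in part set by how genes were chosen: 8 of those named were taken because this library lay far from its group there, and 6 of them are in it, with 29 among the other genes. Others were named because their call changed without it. It was high, in CPM, at Car2 (495), Ccl2 (403), Ccl3 (1958), Clip4 (63.7), Csf1 (36.6), Csf2 (382), Csf3 (176), Hbegf (21.5), Hspa5 (2912), Ier3 (585), Il18rap (65.01), Il1rn (54.4), Il23a (153), Il6 (2.76), Lcn2 (71.1), Mgl2 (62.2), Mmp9 (89.7), Nfkb1 (284), Nos2 (1.08), Phlda1 (326), Plau (2891), Plaur (484), Ptgs2 (523), Spry2 (23.7), Spry4 (8.41) and Txnip (191). It was low at Birc3 (121), Cxcl10 (185), Cxcl11 (8.41), Ifngr1 (61.7), Irf1 (35.6), Mylip (11.4), Nr4a1 (9.29), Pmaip1 (149) and St6gal1 (0.875). Elsewhere Nur77 replicate 3 was high at Nefh (157). In the GFP line replicate 1 was high at Hdac2 (159.9) and low at Ccl5 (7.59), Csf3 (12.3) and Phlda1 (38.8), replicate 3 was high at Hcar2 (9.84) and low at Frmd6 (15.9) and Mgl2 (1.83), and replicate 4 was high at Manf (124) and low at Ms4a6c (18.7).

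The difference between the lines at 1 h was tested against that at 0 h in edgeR's fit of all 24 libraries. The log2 difference of the differences (1 h minus 0 h) passed above 0 at Adm (1.02), Ccl3 (0.86), Egr1 (1.54), Fos (1.27), Hcar2 (1.21), Herpud1 (0.32), Ifih1 (0.68), Mylip (0.83), Nfe2l2 (0.33), Ppp1r15a (1.34), Saa3 (1.09), Scg2 (2.30), Spry2 (0.73) and Zfp36 (0.59). It passed below 0 at Arf2 (-0.64), Ccl22 (-1.87), Dusp1 (-0.92), Egr2 (-0.63), Ifrd1 (-0.52), Irf1 (-1.82), Klf2 (-1.03), Nfkbia (-1.28), Nuak2 (-1.02), Rgs2 (-0.68), Tnfaip3 (-1.45), Tnip3 (-0.79), Traf1 (-1.34) and Trib1 (-0.61). Scg2 was at most 0.740 CPM in the Nur77 line at 1 h, and without Nur77 replicate 2 its shift did not pass (adjusted p = 0.0839).

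Against 5 h the same test (1 h minus 5 h) passed above 0 at Acod1 (0.91), Adm (1.36), Atf3 (0.63), Birc3 (0.73), Casp1 (0.45), Ccl22 (1.12), Ccl4 (0.42), Ccl5 (1.06), Hcar2 (1.13), Ifih1 (1.41), Ikbke (1.01), Il18rap (0.80), Irak3 (0.85), Jak2 (0.97), Mylip (0.75), Nfe2l2 (0.39), Nfkb1 (0.62), Nfkb2 (0.55), Oasl1 (1.26), Panx1 (0.72), Plau (1.54), Ppp1r15a (0.73), Ptgs2 (1.56), Saa3 (0.96), Socs3 (0.64), Spry2 (0.79), Ticam2 (0.60), Traf1 (0.76), Vim (0.25) and Zcwpw1 (0.93). It passed below 0 at Arf2 (-0.46), Casp9 (-0.70), Cd36 (-0.33), Csf1 (-0.64), Cxcl1 (-1.45), Dhcr7 (-0.71), Egr2 (-0.38), Fdft1 (-0.31), Fos (-0.77), Frmd6 (-0.67), Ifrd1 (-0.46), Insig1 (-0.41), Jun (-0.85), Klf2 (-1.17), Lif (-0.62), Mpeg1 (-0.45), Ms4a6c (-0.92), Nr4a1 (-1.63), Nuak2 (-0.81), Oas3 (-1.15), Rgs2 (-0.81), Rhob (-1.01), Rxra (-0.56), Tnip3 (-0.47), Trib1 (-0.47) and Usp18 (-1.89). Without Nur77 replicate 2 the values of Plau and Ptgs2 were 0.90 and 0.98; those of the other genes of these lists moved by less than 1.5 times, and only that of Scg2 against 0 h lost its call. How replicate 2 comes to differ from its group was not tested.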

How the results depend on the processing

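The count of genes that differed between the lines (6259) stayed within 1.5 times under every alternative but the fit with a replicate block on the 1 h libraries alone, where it was 3342. It was 4350 with only the 1 h libraries fitted, and 4995 with only those and without Nur77 replicate 2. The shares over all genes used above are those of the fit of all libraries. The counts at a log2 fold change of at least 1 (1019) and among LPS-induced genes (207) stayed within 1.5 times under all alternatives run. Leaving out each 1 h library in turn gave 5551 to 6727, 986 to 1115 and 196 to 230 genes for these 3 counts.

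The count of genes whose line difference at 1 h differed from that at 0 h (144) depended most on the processing. It was 491 with DESeq2, 95 with no low-count filter, 47 with only the libraries of the groups compared, 90 with a replicate block and 32 with the block on those libraries alone. It ran from 81 to 1600 over the libraries left out. The count against 5 h (807) was 375 with the block on the groups compared alone and ran from 622 to 1505 over the libraries left out, the highest without Nur77 replicate 1. The cause was not tested.

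The counts of members higher and lower in the 27 lists, 54 in all, depended on the samples fitted. With the block on the 1 h libraries alone 30 of them moved by more than 1.5 times, with only the 1 h libraries 18, with only those and leaving out Nur77 replicate 2, 12, with no low-count filter 4, with the replicate block 2, and with 1 library left out 0 to 7. Without Nur77 replicate 2 the number lower was 4 of 17 (1 with all libraries) for chemokines, 8 of 20 (4 with all libraries) for inflammatory enzymes and effectors, 5 of 20 (3 with all libraries) for interferon regulators, 4 of 28 (1 with all libraries) for the stress response and 5 of 9 (3 with all libraries) for osteoclast genes.

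Of 2965 values of the named genes under the alternatives, 2883 kept direction and call, 63 lost the call, 18 gained it and 1 turned direction: Osm without Nur77 replicate 2, whose log2 fold change ran from -0.31 to 0.22 over the libraries left out. DESeq2 gave no adjusted p for 5 of the genes (Ccl2, Csf3, Hbegf, Lcn2 and Mmp9). No pairing of the samples by replicate number was seen. Deviations of same-numbered libraries of the lines from their group means correlated at -0.20 to 0.01 across genes, and no library correlated best with its own number. These group means include Nur77 replicate 2, which shapes the deviations of the rest of its group, so this check cannot decide whether the samples were paired. Library depth, with gene counts totalling from 8137306, limits what can be said of genes at a few CPM.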
